A study of Mus musculus with 6 samples.

Results

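The immunoglobulin heavy chain locus (Igh) of the mouse lies on chromosome 12 and was examined through the ATAC-seq peaks of splenic immature B cells. Its members were taken from the gene table by symbol, as every segment starting with Ighv, Ighd or Ighj and the constant genes Ighm, Ighd, Ighg1, Ighg2b, Ighg2c, Ighg3, Ighe and Igha. They numbered 215 of the 49943 genes of the table: 183 V segments, of which 63 were annotated as pseudogenes, 20 D segments, 4 J segments and 8 constant genes. Peaks were taken within 1 kb of each member, and in the whole stretch from 1 kb beyond the outermost V segment to 200 kb beyond Igha. That stretch held 34, 44 and 65 peaks in untreated replicates 1, 2 and 3 and 40, 55 and 55 in DTx replicates 1, 2 and 3, out of lists of 36760, 42504 and 56503 and of 44661, 56266 and 60811 peaks.

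All 6 libraries came from B220+CD93+ spleen cells of Tcrd-GDL mice, in which γδ T cells carry a receptor for diphtheria toxin under the Tcrd gene. The 3 untreated libraries came from mice with the same transgene and no toxin. The 3 DTx libraries came from mice given diphtheria toxin at 15 ng per gram of body weight by intraperitoneal injection, 2 times with 48 h between, and examined on day 8. The groups thus put B cells that had γδ T cells beside B cells of mice treated to lose them, and depletion cannot be told apart from other effects of the toxin. The age and sex of the mice and whether each library was a separate mouse are not given in the labels, so a p-value reflects only how far these samples spread, possibly for technical reasons.

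Heavy chain genes are assembled by V(D)J recombination, in which the RAG recombinase joins 1 D to 1 J segment and then 1 V segment to the joined DJ. Each V segment has its own promoter on one side and a recombination signal, with a conserved heptamer, on the other. The intronic enhancer Eμ lies between the J segments and Ighm, each switch region lies upstream of the constant gene it serves, and beyond Igha there is a 3' regulatory region of enhancers followed by CTCF-binding insulators. The locus is transcribed toward lower coordinates, from V to Igha. Joining deletes the DNA between the joined segments, so in bulk cells fewer copies of a V, D or J segment and less open copies cannot be told apart.

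The files give no sequence, and the RefSeq promoter table (GRCm38.p6, the same assembly as mm10) held a window for 0 of the 215 members, but for 13 neighbouring genes in the stretch it held 14 windows of 300 bases. Of these 14 windows, 4 overlapped a peak in all 6 libraries and 7 in none. The windows of Crip2 and of F930026P19Rik among the 4 lay over the same region, and the remaining one was that of Tedc1. A trio of windows is printed because they hold the motifs of the locus and differ in their peaks: Gm30948, the only window among the V segments with a peak, Gm40900, another V-part window with none, and Crip2, beyond the 3' end of the locus, with a peak in all 6 libraries. Capitals mark the E box CAGGTG and the recombination heptamer CACAGTG in the first pair of windows, on either strand, and the CTCF-like core in Crip2 (CCA, any 2 bases, AG, any 2 bases, GGC).
Gm30948, chr12:115262401-115262700, plus strand: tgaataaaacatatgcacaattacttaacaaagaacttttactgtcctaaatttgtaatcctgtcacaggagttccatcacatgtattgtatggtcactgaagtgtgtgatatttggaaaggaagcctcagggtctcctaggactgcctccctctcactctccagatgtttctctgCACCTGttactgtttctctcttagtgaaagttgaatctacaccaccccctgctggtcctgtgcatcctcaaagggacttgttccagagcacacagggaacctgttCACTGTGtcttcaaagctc
Gm40900, chr12:115703580-115703879, plus strand: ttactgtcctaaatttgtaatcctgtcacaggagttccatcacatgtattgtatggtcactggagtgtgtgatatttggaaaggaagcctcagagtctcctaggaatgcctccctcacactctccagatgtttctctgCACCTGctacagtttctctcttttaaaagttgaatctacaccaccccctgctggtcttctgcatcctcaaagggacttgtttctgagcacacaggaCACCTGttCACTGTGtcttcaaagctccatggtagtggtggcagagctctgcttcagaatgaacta
Crip2, chr12:113139986-113140285, plus strand: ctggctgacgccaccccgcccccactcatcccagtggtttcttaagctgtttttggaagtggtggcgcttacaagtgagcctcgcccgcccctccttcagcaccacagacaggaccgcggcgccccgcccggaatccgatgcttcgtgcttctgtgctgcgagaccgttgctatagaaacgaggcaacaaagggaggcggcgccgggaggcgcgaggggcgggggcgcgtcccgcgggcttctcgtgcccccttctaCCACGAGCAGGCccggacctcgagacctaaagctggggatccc
The Gm30948 window held 1 CAGGTG and 1 heptamer and the Gm40900 window 2 CAGGTG and 1 heptamer. Of all 32851 windows of this length in the table, 20.2% held CAGGTG, 6.81% the heptamer and 2.43% the CTCF-like core, and a match describes the letters and shows no binding or cutting there. The octamer ATGCAAAT, known from V promoters, was in 1.74% of all windows and in 0 of the 14, none of which belongs to a V segment. The Gm30948 and Gm40900 windows shared an identical run of 62 bases, and how reads that fit both were treated is not known here. The Gm30948 peak was missing in untreated replicate 1 and lay at percentiles of 15.8 and 27.8 in the other untreated libraries and 9.34, 9.24 and 12.5 in the DTx libraries, where a percentile is the rank of a peak's −log10 q within its own list, from 0 for the weakest to 100 for the strongest. The peak was thus weak where it was called, in 2 of 3 untreated and 3 of 3 DTx libraries. Percentiles come from lists of different lengths, so here and throughout they place a peak within its library and a gap between libraries shows no change.

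Peaks were unevenly spread over the 5 parts of the locus. The V part, 2439 kb long, had 0.574 to 1.15 peaks per 100 kb over the 6 libraries, below the 1.28 to 2.11 of chromosome 12 as a whole. The D part (142 kb) had 0.704 to 3.52 and the switch and constant part (169 kb) 4.13 to 8.27. The 200 kb of the 3' part had 5.5 to 9.5, and the 4.32 kb around the J segments and the start of the J-Ighm intron, the J-Eμ part, had 23.2 to 46.3, from 1 or 2 peaks. Peaks covered 0.286% to 0.541% of the V part, 2.02% to 4.94% of the switch and constant part, 3.59% to 6.33% of the 3' part and 0.760% to 1.23% of the chromosome. The V part's range lay below the chromosome's and the 3' part's above it, without overlap.

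**Figure D1:**
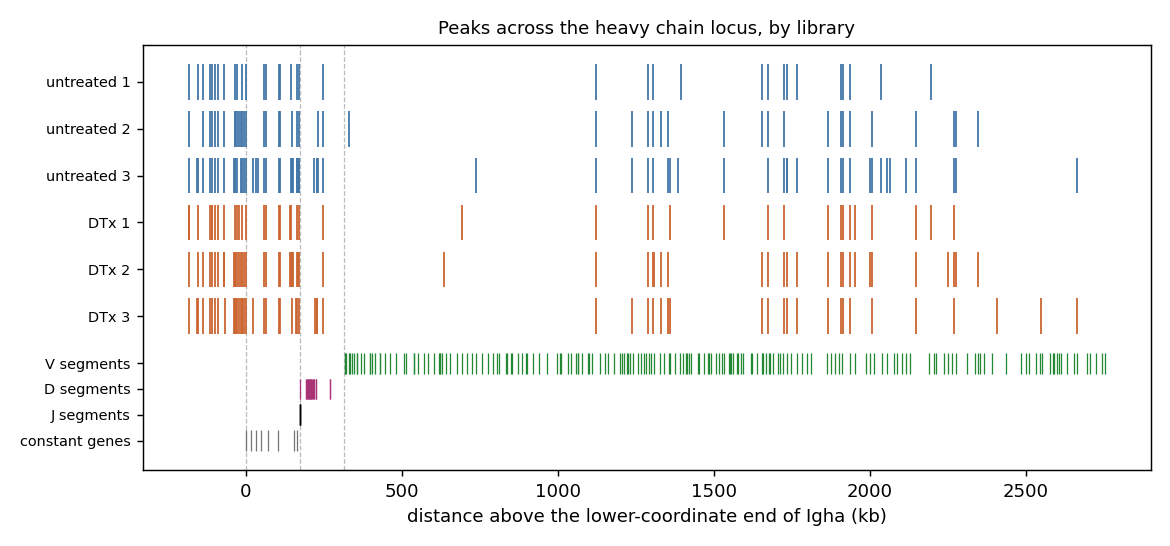
Positions of every peak (ticks) in each of the 6 libraries against distance above the lower-coordinate end of Igha in kb, with the V, D and J segments and constant genes below; dashed lines mark Igha, the J segments and the start of the V segments. Peaks crowd at and beyond the constant genes and are few among the V segments nearest to the D segments.

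Merging the 6 lists gave 86 regions in the locus. In all 6 libraries 25 of them (29.1%) had a peak, against 44.1% of all 70174 regions. By part this was 8 of 42 regions in V, 1 of 5 in D, 1 of 2 in J-Eμ, 6 of 17 in the switch and constant part and 9 of 20 in the 3' part. Of the 25, 6 lay within 1 kb of a segment or constant gene, while the 9 in the 3' part lay by definition beyond every member. Another 24 regions were called in 1 library each. In the 25 regions the summits of the narrow lists of untreated replicate 3 and DTx replicate 1, the only lists with summits, lay a median of 11 bp apart, within 50 bp in 18 regions and 106 bp at most.

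**Figure D2:**
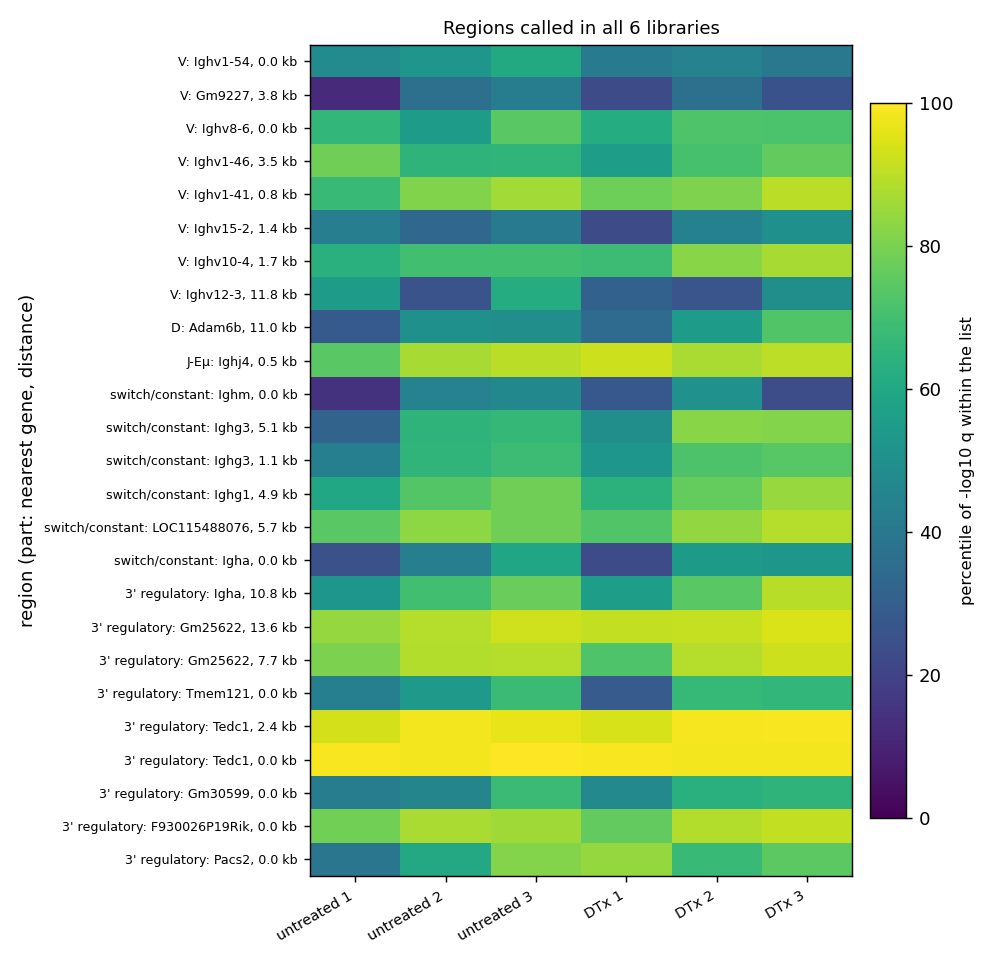
Heat map of the 25 regions called in all 6 libraries (rows, by part, nearest gene and distance in kb) against the 6 libraries (columns), coloured by the percentile of −log10 q within each list. The rows at Tedc1 lie at 93.5 or above in every library, while the Ighm row lies between 14.7 and 50.8.

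V segments were mostly without a peak. A peak lay within 1 kb of 7, 8 and 14 of the 183 in untreated replicates 1 to 3 and of 7, 11 and 8 in DTx replicates 1 to 3, or 3.83% to 7.65%. The groups overlapped, and the highest value was untreated replicate 3. In all, 22 V segments had a peak in any library, 161 had none and 3 had one in all 6. The share of all genes with a peak within 1 kb is not given here for comparison. By annotation, 17 of 120 V segments not marked as pseudogenes and 5 of 63 pseudogenes had a peak in at least 1 library. On the edge of the 1 kb limit, Ighv1-62 at 0.922 kb and Ighv1-65 at 0.933 kb counted, and Ighv5-3 at 1.19 kb and Ighv1-50 at 1.39 kb did not (named after their values were seen).

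The 3 V segments with a peak in every library were Ighv8-6, Ighv1-54 and Ighv1-41. Ighv8-6 (chr12:115165777-115166077) lay under its peak, whose percentiles were 66.3, 55.04 and 74.2 in the untreated and 61.7, 72.4 and 71.8 in the DTx libraries. Its groups overlapped. Ighv1-54 (chr12:115193675-115193968) also lay under its peak, at 48.2, 52.7 and 60.9 untreated and 41.7, 44.3 and 39.9 DTx. The untreated values were all above the DTx values, by the margin between 48.2 and 44.3. In the broad lists alone they were 48.2 and 52.7 against 44.3 and 39.9, and in the narrow lists 60.9 against 41.7. No test was made of a percentile. Among the 25 regions called in all 6 libraries, only this peak had groups that did not overlap. The share of all regions separated in this way was not computed. Ighv1-41 (chr12:114932371-114932664) is a pseudogene 0.842 kb from its peak, which was the strongest of the V part in 4 of the 6 lists and lay at 67.3, 81.0 and 86.1 untreated and 77.9, 80.6 and 89.8 DTx. Here the groups overlapped.

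The other 5 V-part regions called in all 6 libraries lay between segments. The one at chr12:114544910-114545543, 1.72 kb from the pseudogene Ighv10-4, had percentiles of 63.4, 69.9 and 69.7 untreated and 68.5, 82.1 and 87.1 DTx. The one at chr12:114981525-114982190, 3.54 kb from Ighv1-46, had 78.2, 65.0 and 65.6 against 56.2, 70.9 and 76.1. Values overlapped between the groups at both. Regions 1.39 kb from Ighv15-2 (22.7 to 50.01), 11.8 kb from Ighv12-3 (25.7 to 61.8) and 5.50 kb from Ighv8-6 (12.2 to 42.2) were weaker. The other 34 V-part regions, called in 1 to 5 libraries, reached a percentile of 37.7 at most, and 20 of them lay within 1 kb of a segment against 3 of the 8. Of the 34, 4 were called in 5 libraries, and the library without them was each time untreated replicate 1, the shortest list.

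Along the V part, peaks concentrated away from the D segments. In 5 bins of equal length counted from the D side, the first, with 42 segments, had 0, 1 and 1 peaks in the untreated and 1, 1 and 0 in the DTx libraries. The next, with 41 segments, had 2 or 3 in each library. The middle bin, with 46 segments, had 7, 7 and 10 untreated and 5, 9 and 9 DTx, and the bin after it, with 26 segments, had 5, 6 and 11 against 8, 9 and 6. The last bin, with 28 segments, had 0, 3 and 3 against 1, 3 and 4. In each library the middle bin and the one after it together held more peaks than the other 3, and in each bin the groups overlapped. By V family, which groups segments of like sequence, a peak in any library was found at 14 of 92 Ighv1 segments and 4 of 16 Ighv8 segments. It was found at 0 of 21 Ighv5, 1 of 11 Ighv2, 0 of 8 Ighv3 and 0 of 7 Ighv6 segments. Family and position go together, since the Ighv5 and Ighv2 segments lie toward the D side and the Ighv1 and Ighv8 segments farther away, and their parts cannot be told apart here.

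The V segments of 2 other antigen receptor loci gave a comparison within each library. Igkv segments belong to the κ light chain of B cells and Trav segments to the α and δ chains of T cells. The share of segments with a peak within 1 kb was 3.83%, 4.37% and 7.65% for Ighv in the untreated and 3.83%, 6.01% and 4.37% in the DTx libraries. For the 162 Igkv segments it was 21.6%, 38.3% and 46.9% and then 34.6%, 47.5% and 52.5%, higher than Ighv in 6 of 6 libraries. Ighv minus Igkv was −35.2 ± 10.5 percentage points (SD, n = 6; exact two-sided sign-flip permutation p = 0.03125, the smallest that 6 libraries can give; Benjamini-Hochberg adjusted over the 2 comparisons 0.0625). With every list cut to its 36760 strongest peaks by −log10 q, the length of the shortest, the difference was −23.5 points and the adjusted exact permutation p 0.03125. For the 130 Trav segments the share was 1.54%, 0.769% and 1.54% untreated and 1.54%, 6.15% and 3.85% DTx. Ighv minus Trav was 2.45 ± 2.25 points (SD, n = 6), higher in 5 of 6 libraries, with an exact sign-flip permutation p of 0.0625 and the same value after adjustment. Peaks per 100 kb ranged over 0.574 to 1.15 in the Ighv stretch, 1.78 to 5.14 in Igkv and 0.322 to 0.838 in Trav.

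**Figure D3:**
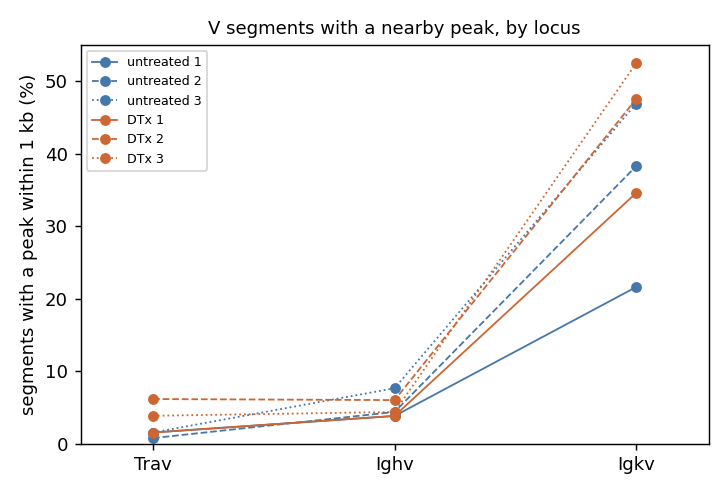
Percentage of Trav, Ighv and Igkv segments with a peak within 1 kb, 1 line per library (blue untreated, orange DTx; line style marks the replicate). Every line is higher at Igkv, between 21.6% and 52.5%, than at Ighv, between 3.83% and 7.65%.

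The D segments were nearly without peaks. Of the 20, 0 had one within 1 kb in 4 libraries and 2 had one in untreated replicate 3 and DTx replicate 3, the longest list of each group. These were Ighd2-3 and Ighd1-1, with percentiles of 2.84 and 14.6 in untreated replicate 3 and 16.9 and 5.77 in DTx replicate 3. Weak peaks 2.85 kb above Ighd1-1 were called in the same pair of libraries. The only D-part region in all 6 libraries lay away from the D segments at chr12:113502833-113503333, 11.0 kb above Adam6b, a testis-expressed gene between V and D, and 20.6 kb above Ighd1-1. Its percentiles were 28.1, 50.1 and 49.3 untreated and 34.9, 54.7 and 72.8 DTx, and the groups overlapped. The insulator IGCR1 belongs to the stretch between the V segments and most D segments, but its position is not given here, so no region is tied to it.

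The J-Eμ part held the strongest peak near any member. The region at chr12:113426514-113428036 began 0.478 kb below Ighj4, the J segment nearest to Ighm, in the intron that carries Eμ, whose own limits the gene table does not give. Its percentiles were 74.4, 86.7 and 89.7 in the untreated and 92.4, 87.2 and 90.0 in the DTx libraries. The groups overlapped, and untreated replicate 1 was the lowest. Peak widths were 1094, 1007 and 1491 bp untreated and 1267, 1347 and 1409 bp DTx. Pileup, the authors' read coverage at the peak, was 43.4 and 91.0 in the broad untreated lists and 114 and 158 in the broad DTx lists; in the narrow lists it was 401 untreated and 253 DTx. The order of the groups was therefore opposite in the 2 layouts, and pileup also follows depth, which is unknown. In both narrow lists the summit fell on the same base, 113427523, which is 991 bp below Ighj4. Of the 4 J segments only Ighj4 had a peak within 1 kb, in all 6 libraries. Ighj3 was just outside at 1.05 kb from the same region, and Ighj2 and Ighj1 lay at 1.43 and 1.75 kb. A peak at chr12:113425441-113425727, 2.71 kb above Ighm, was called in untreated replicate 3 only, at a percentile of 6.97 and a pileup of 92.

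**Figure D4:**
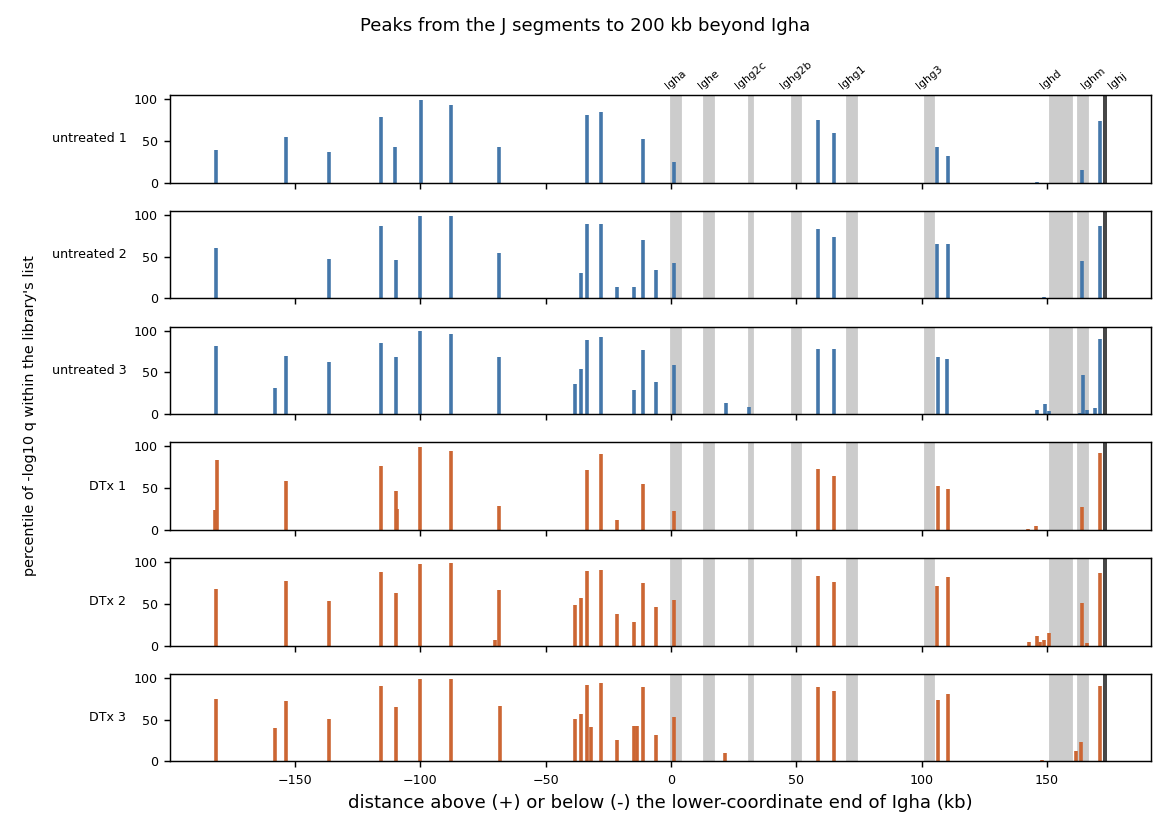
Percentile of −log10 q within the list (vertical axis) of each peak from the J segments to 200 kb beyond Igha, against distance in kb from the lower-coordinate end of Igha, 1 panel per library; grey bands are constant genes and the dark line marks the J segments. The tall bars at about the same places in every panel are the regions called in all 6 libraries, and short bars near Ighd and Ighm vary between libraries.

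Among the constant genes, Ighm and Igha had a peak within 1 kb in all 6 libraries. The Ighm gene, which encodes the heavy chain of IgM, the receptor of immature B cells, overlapped the region at chr12:113418969-113421493. Its percentiles were 14.7, 44.3 and 46.7 untreated and 27.5, 50.8 and 23.8 DTx, and the groups overlapped. They were low beside the J-Eμ peak in each library, although the region is 2525 bp wide. Pileup was also below that of the J-Eμ peak in each library, but above that of the Ighv1-54 peak. In untreated replicate 3 pileup was 128 at Ighm and 61 at Ighv1-54, with a fold over background of 3.54 and 15.1. A low percentile here thus does not mean low coverage. Igha, for IgA, had a peak inside the gene (chr12:113256962-113257745) at 24.7, 42.6 and 59.0 untreated and 22.7, 54.5 and 53.0 DTx. The constant gene Ighd, for IgD and not to be taken for the D segments, had one in untreated replicate 3 and in DTx replicates 2 and 3, and the best of these reached a percentile of 15.7. Ighg2c, for an IgG subclass, had one in untreated replicate 3 only (7.97). Ighg1 and Ighg2b, for other IgG subclasses, and Ighe, for IgE, had none in any library, at 4.95, 6.65 and 4.36 kb from the nearest peak. Ighg3 was just outside the limit at 1.09 kb.

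Between the constant genes, 4 regions were called in all 6 libraries, and each was stronger than the Igha peak in every library. The region at chr12:113314579-113315164 lay 6.65 kb above Ighg2b, on its upstream side, with percentiles of 74.6, 82.9 and 78.4 untreated and 72.7, 84.0 and 88.8 DTx. The one at chr12:113320977-113321593, 4.95 kb below Ighg1, had 59.8, 73.4 and 78.5 against 64.3, 76.4 and 84.8. A pair lay upstream of Ighg3, which encodes the IgG3 heavy chain. The nearer one (chr12:113362319-113362885) had 43.0, 65.5 and 68.6 untreated and 52.4, 72.0 and 74.2 DTx. The farther one (chr12:113366324-113366806, at 5.09 kb) had 31.9, 65.1 and 66.4 untreated and 49.5, 82.4 and 81.3 DTx. At each of the 4 regions both DTx values of the broad lists were above both untreated ones. In the narrow lists the DTx value was the lower. The same pattern held at the Igha peak and at the D-part region called in all 6 libraries. It also held at every region between Igha and Tmem121 called in all 6. It did not hold at the Ighm, J-Eμ and Ighv1-54 peaks. The pattern is therefore not particular to these 4 regions. Over all 6 libraries the groups overlapped at all 4. No region called in all 6 libraries lay in the stretch from Ighg3 to Ighm apart from this pair, and the other 11 regions of the switch and constant part reached a percentile of 15.7 at most.

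The 3' part divided into 66.7 kb from Igha to Tmem121, which takes in the 3' regulatory region as commonly drawn, and 133.3 kb of other genes. The first stretch held 3, 7 and 7 peaks in the untreated and 4, 8 and 10 in the DTx libraries. They formed 10 regions, 3 of them in all 6 libraries. The nearest of the 3 to Igha (chr12:113244443-113245358, 10.8 kb below it) had percentiles of 52.7, 69.7 and 77.3 untreated and 55.6, 74.5 and 89.4 DTx. The next (chr12:113227831-113228719, 27.5 kb below Igha) had 84.3, 88.9 and 92.9 against 90.6, 91.1 and 94.3. The farthest (chr12:113221967-113223219, 33.0 kb below Igha) had 80.4, 88.5 and 89.1 against 72.3, 89.0 and 92.2. Groups overlapped at each of the 3. By percentile the middle one ranked above the J-Eμ peak in 5 of 6 libraries. By pileup it was below the J-Eμ peak in every library except DTx replicate 3, where it had 171 against 158. No file or gene table gives the limits of the enhancers, so none is named.

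The only region of the locus called in all 3 DTx libraries and 1 untreated library lay in this stretch, at chr12:113234426-113234720, 21.5 kb below Igha (singled out after its values were seen). Its percentiles were 11.4, 37.5 and 25.4 in the DTx libraries and 13.6 in untreated replicate 2. It was a weak peak in each, with a −log10 q of 6.57, 6.55 and 5.06 in the DTx libraries and 3.00 in untreated replicate 2. With peaks of −log10 q of 5 or more alone it therefore counted as called in the DTx libraries only. Over the locus, 3 regions including this one were called in 2 more DTx than untreated libraries and 3 in 2 more untreated than DTx libraries. The latter were at chr12:113487603-113487986, 5.41 kb above Ighd1-1, at chr12:114991027-114991266 at Ighv1-47 and at chr12:115293715-115294260 at Ighv8-8, each called in 2 untreated libraries and no DTx library, at a percentile of 21.9 or below.

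Beyond Tmem121, a gene of a transmembrane protein, the stretch held 8, 7 and 9 peaks in the untreated and 9, 9 and 9 in the DTx libraries, and 6 of its 10 regions were called in all 6. The strongest region of the locus by its lowest percentile over the 6 libraries lay at Tedc1, a centriole gene (chr12:113155447-113156644), at 98.9, 98.2 and 99.6 untreated and 99.0, 98.4 and 98.4 DTx. A second, 2.42 kb from Tedc1 (chr12:113167882-113168675), had 93.5, 98.2 and 96.6 against 94.1, 98.6 and 98.9, and ranked above the first in DTx replicates 2 and 3. The region over the Crip2 window printed above and its neighbour F930026P19Rik had 78.9, 87.2 and 85.7 against 76.1, 88.3 and 90.8. Regions at Pacs2 (39.2 to 84.0), Gm30599 (42.5 to 68.1) and Tmem121 (28.9 to 68.3) were the other 3. These genes are neighbours and not members, and groups overlapped at all 6.

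No region or member had a peak in all libraries of one group and in none of the other. For regions that was 0 of 86 in either direction, where the background over all regions was 0.705% called in the DTx libraries only and 0.0242% in the untreated only. For members with a peak within 1 kb it was 0 of 215 in either direction, beside 0.132% and 0.01% of all genes. At these background shares fewer than 1 of 86 regions or 215 members would be called, so a count of 0 is near the background. Of the 86 regions, 24 were called in more DTx than untreated libraries, 18 in more untreated and 44 in equal numbers.

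Peak numbers per part did not differ between groups by more than the spread between libraries. The V part had 14, 20 and 28 peaks in the untreated and 17, 24 and 22 in the DTx libraries, or 20.7 ± 7.02 against 21.0 ± 3.61 (SD, n = 3 each; exact two-sided permutation p = 1). The D part had 1, 2 and 5 against 1, 1 and 4 (exact permutation p = 0.7). The J-Eμ part had 1, 1 and 2 against 1, 1 and 1 (exact permutation p = 1). In the switch and constant part there were 7, 7 and 14 against 8, 12 and 9, or 9.33 ± 4.04 against 9.67 ± 2.08 (SD, n = 3 each; exact permutation p = 1). The 3' part had 11, 14 and 16 against 13, 17 and 19, or 13.7 ± 2.52 against 16.3 ± 3.06 (SD, n = 3 each; exact permutation p = 0.4). V segments with a peak numbered 9.67 ± 3.79 untreated and 8.67 ± 2.08 DTx (SD, n = 3 each; exact permutation p = 0.9). All 6 p-values were 1 after Benjamini-Hochberg adjustment, and 3 libraries against 3 cannot give a p below 0.1.

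**Figure D5:**
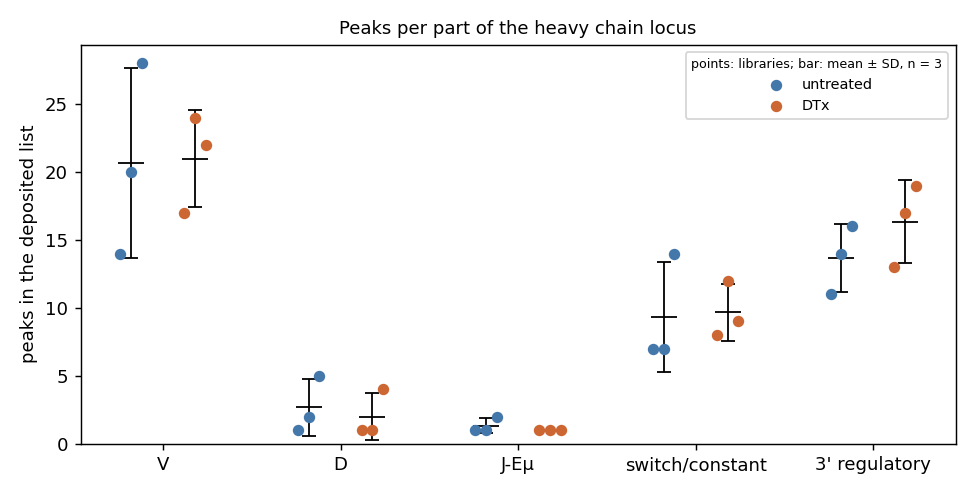
Peaks in the deposited list (vertical axis) per library for the 5 parts of the locus, untreated in blue and DTx in orange; points are libraries and bars the mean ± SD (n = 3). The groups overlap in every part, and the 3' part has the widest gap between means, 13.7 against 16.3.

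The direction of these differences went with the layout of the list. Untreated replicate 3 and DTx replicate 1 were in a narrow layout and the other 4 lists in a broad one. DTx minus untreated in the V part was 6 within the broad lists and −11 within the narrow ones. In the switch and constant part it was 3.5 and −6, in the 3' part 5.5 and −3, and for V segments with a peak 2 and −7. List length had the same order: the broad DTx lists were longer than the broad untreated ones, and the narrow DTx list was shorter than the narrow untreated one. Its part in these differences was examined only through lists of equal length. That cut takes the weakest peaks from the longer lists and none from untreated replicate 1. V-part peaks had median percentiles of only 14.25 to 32.3, so their loss from longer lists follows partly from the cut. The V-part value therefore does not decide the part of list length. With lists of equal length the V part had 14, 13 and 8 peaks untreated and 9, 7 and 7 DTx, a difference of −4 (exact permutation p = 0.2). The 3' part then had 13.0 ± 1.73 against 14.7 ± 2.52 (SD, n = 3 each; exact permutation p = 0.4).

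Genes whose products act on the locus mostly had peaks in both groups. Of 30 genes of recombination, switching and locus control, 21 had a peak within 1 kb of a gene end in all 6 libraries. Between 22 and 27 had one per library. The share of all genes with a peak by this rule is not given here. These counts, and those of the marker genes below, therefore do not set the genes apart from others. Rag1 and Rag2 encode the recombinase; a Rag1 peak was found in 0 untreated libraries and 1 DTx library, and a Rag2 peak in 1 library per group. Dntt, which adds untemplated bases at joins, and Rad21, a cohesin subunit, had none in any library by this rule. The rule leaves out peaks farther inside a gene, so these genes are not shown to be closed. Trp53bp1, a DNA break repair factor, had one in 1 untreated library and in no DTx library. None of the 30 had a peak in every library of one group and in none of the other. For the check of the label, peaks at gene ends were present in all 6 libraries for 6 of 7 B cell markers. Per library 2 or 3 of 6 T cell markers, 3 of 4 plasma cell markers, 2 or 3 of 4 myeloid markers and 1 or 2 of 3 erythroid markers had one; the defining genes Cd3e, Trdc, Lyz2 and Gata1 had none in any library. Further genes on these lists did (named after their values were seen): in all 6 libraries a peak lay at Cd3d (percentiles 87.4 to 97.5) and Lat (72.2 to 85.7) of T cells, Cd68 (39.1 to 87.7) of myeloid cells and Klf1 (70.2 to 90.5) of erythroid cells. Itgam of myeloid cells and Epor of erythroid cells had one in 5 libraries each. The part of other cells in the peaks of the locus was not tested. Tnfrsf17 of plasma cells had none either, while Sdc1, Prdm1 and Jchain had one in all 6.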

How the data were processed

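Open chromatin was measured by ATAC-seq, in which the transposase Tn5 inserts adapters into accessible DNA, in 3 untreated and 3 DTx libraries. The tools were Trim Galore 0.4.3 for trimming, Bowtie2 2.3.2 and the mm10 build for alignment and MACS2 2.1.1 for 1 peak list per library, per the submitters' processing notes. For the Tn5 shift, duplicate removal, multi-mapping reads and read totals, details were not given in the sources used here, so depth is unknown and no interval that needs it is given. The deposited lists give for each peak its position, pileup (coverage signal), fold over background (a ratio, per the file headers) and −log10 p and q. Damaged −log10 headers in the deposited lists were resolved from column order and values. All are the authors' own values per peak, and served here to describe, rank or filter peaks within 1 list. Untreated replicate 3 and DTx replicate 1 have the layout of narrow MACS2 lists, with summits and a lowest −log10 q of 1.33 and 1.30, and the others the broad layout (1.00 to 1.02); values within each layout are given where they differ.

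Mitochondrial peaks were left out. Coordinates are 1-based on mm10, and genes are from a table of the same assembly that has no strand or exons, so exons and introns were not told apart. Parts were set by peak midpoint: V to 1 kb below the innermost V segment, D to the upper end of the highest J, J-Eμ to 3 kb below the lowest J, switch and constant to the lower end of Igha, and 3' to 200 kb beyond. Overlapping peaks of the 6 lists were merged into regions. Group means were compared by exact permutation over the 20 relabellings and shares by exact sign flips over libraries, adjusted by Benjamini-Hochberg; the functions were tested on simulated data. Alternatives were equal-length lists, −log10 q of at least 5, each layout alone, a 5 kb window, each library left out and a replicate block. Named were the constant genes, J segments, V segments and regions called in all 6 libraries (by the highest lowest percentile) and any called in one group only. Software was SciPy 1.17.1, pandas 2.3.3, NumPy 2.4.6 and Python 3.11.15. The members and lists were chosen with earlier results of these data known.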

Additional observations from a re-analysis of the deposited data

How the results depend on the processing

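Of 107 recomputed values, 72 kept the direction and side of the threshold, or the count, of the value reported, and 35 did not; the cause was not tested. All are DTx minus untreated unless said. With equal-length lists the V part gave −4, the D and J-Eμ parts 0 and the switch and constant part −0.667. With a −log10 q of 5 or more the V part gave −2.33, the J-Eμ part 0, the switch and constant part −0.333, and the DTx-only regions numbered 1 (1.16% of 86, beside 0.314% of all regions). Within the narrow lists the V part gave −11, the switch and constant part −6 and the 3' part −3; within the broad lists the D part gave 1, the J-Eμ part 0, V segments with a peak 2, and the DTx-only regions numbered 2 (2.33%, beside 11.8% of all regions). With a 5 kb window V segments gave 1. Ighv minus Igkv was −23.5 points with equal-length lists and −41.7 with the 5 kb window, and Ighv minus Trav 1.49 and 4.77, each with an adjusted exact sign-flip permutation p of 0.03125, where the reported windows gave 0.0625. The stretch from Igha to Tmem121 alone, chosen after seeing the data, gave 1.67.

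Leaving out 1 library at a time gave −3 to 4 for the V part, −1.67 to 0.5 for D, −0.5 to 0 for J-Eμ, −0.833 to 2.67 for switch and constant, 1.33 to 4.33 for 3' and −2.33 to 1.17 for V segments. It gave 0 to 1 DTx-only regions. Of these, 1 (1.16%) was found without untreated replicate 2, DTx replicate 1 or DTx replicate 3, beside 0.986%, 3.89% and 1.14% of all regions. It gave 0 to 2 untreated-only regions, with 2 (2.33%) without untreated replicate 2, beside 0.141% of all regions, and 1 (1.16%) without untreated replicate 1, beside 0.221%. Shares differed by −38.7 to −32.6 points for Ighv minus Igkv and 1.71 to 2.96 for Ighv minus Trav. With a replicate block the differences were the same, 0.333 for the V part and 2.67 for the 3' part (exact sign-flip permutation p = 0.25, the smallest 3 pairs can give). Same-numbered deviations correlated at 0.204, −0.0217 and 0.147. For replicates 1 and 3 the best match in the other group was the same-numbered library, in both directions. Untreated replicate 2 correlated best with DTx replicate 1, and DTx replicate 2 with untreated replicate 3. Whether the numbers mark pairs of libraries was therefore left undecided. Read depth is unknown, so what it limits could not be measured.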
